A study of Homo sapiens with 6 samples.

Results

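Heat shock proteins and their co-chaperones were examined in Hep3B cells, a human hepatocellular carcinoma line, that carried a stable inhibitor of the miR-17 microRNA family or its control. Members were taken by symbol: those starting with HSPA, HSPB, HSPD, HSPE, HSPH, HSP90 or DNAJ, and BAG and HSF followed by a digit. HSPA5, HSP90B1, DNAJB9, DNAJB11 and DNAJC3, chaperones of the endoplasmic reticulum, and the matrix gene HSPG2 were left out. This gave 195 of the 54675 probe sets on the Affymetrix array, a probe set being a group of short probes read as 1 value. Of these, 183 carried exactly 1 symbol and covered 79 symbols, 5 of them antisense or divergent RNAs. The other 12 carried several symbols and are given by their probe set.

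The miR-17 TuD line was read on 3 arrays and the NC TuD line on 3, a TuD (tough decoy) being an RNA that offers microRNA binding sites. Both were made by lentiviral transduction (multiplicity of infection 5, lasting 48 hours, polybrene at 10 µg/mL) and puromycin selection (1 µg/mL), with serum at 10%. Resistant colonies were pooled after 2 weeks, so each group rests on 1 pooled line. A further code in the descriptions gives 72 hours on every array. It reads PLUSDOX on every miR-17 TuD array and NODOX on every NC TuD array. No source used here explains it, and it cannot be told apart from the decoy. Separate cultures for the samples of 1 group are not described, so the spread behind each p-value may be technical.

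HSP70 proteins (HSPA) bind unfolded stretches of protein in a cycle driven by ATP. J-domain proteins (DNAJ) bring them clients and stimulate the ATPase, and exchange factors, among them HSPH1, HSPBP1 and several BAG proteins, release the nucleotide. HSP90 takes over part of the clients, the HSPD1 and HSPE1 chaperonin folds proteins in mitochondria, and small heat shock proteins (HSPB) hold unfolded proteins. Under proteotoxic stress the transcription factor HSF1 binds heat shock elements, arrays of inverted GAA units, and induces many of these genes.

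The decoy is directed at the family of miR-17, whose mature sequence is shown with its seed, bases 2 to 8, in capitals because the family is defined by it. Sequences are those of RefSeq for GRCh38.p14. Mature miR-17-5p lies on the plus strand at chr13:91350618-91350640, and 8 mature human microRNAs in the table used, itself included, have this seed.
hsa-miR-17-5p: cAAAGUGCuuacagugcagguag

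Of 86 symbols on the member probe sets, 75 had a promoter of 250 bases before and 50 after the start site in the table used. A heat shock element of 3 units, GAANNTTCNNGAA or its reverse complement TTCNNGAANNTTC, was present in 7 of these 75 genes (9.33%), against 0.608% of 27305 genes. They were DNAJA1, DNAJB6, HSP90AA1, HSP90AB1, HSPA6, HSPA8 and HSPD1. The 3-unit motif contains the 2-unit motifs GAANNTTC, found in 18 of the 75 genes and 8.21% of all genes, and TTCNNGAA, found in 13 and 9.46%. Each 2-unit motif reads the same on both strands. A match describes the letters of this window only. Stretches of 4 of the 7 genes are shown, with the 3-unit motif in capitals and in the direction of transcription, because the levels of these genes are given further on. Those of HSPA8 lie on the minus strand at chr11:123062339-123062381 and chr11:123062164-123062206, and that of HSP90AA1 on the minus strand at chr14:102087105-102087147. Those of HSP90AB1 lie on the plus strand at chr6:44247763-44247805 and chr6:44247816-44247858. HSPD1 has 2 overlapping copies on the minus strand at chr2:197500053-197500090.
HSPA8, distal: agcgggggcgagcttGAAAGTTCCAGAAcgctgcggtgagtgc
HSPA8, proximal: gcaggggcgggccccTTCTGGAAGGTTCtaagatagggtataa
HSP90AA1: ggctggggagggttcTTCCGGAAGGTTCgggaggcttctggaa
HSP90AB1, distal: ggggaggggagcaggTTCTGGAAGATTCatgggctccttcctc
HSP90AB1, proximal: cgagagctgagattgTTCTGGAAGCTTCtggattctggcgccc
HSPD1: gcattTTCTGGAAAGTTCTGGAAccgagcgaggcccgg

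Of 66 member genes tested, 2 rose and none fell in miR-17 TuD arrays, by limma's test with Benjamini-Hochberg adjustment over all genes at a threshold of 0.05. HSPBP1, an HSP70 exchange factor, rose 1.15-fold and DNAJB5, a class B J-domain protein, 1.33-fold. Over all 13949 genes tested, 11.4% were called, 6.78% higher and 4.6% lower. At unadjusted p under 0.05, 8 member genes were higher (12.1%, against 15.5% of all genes) and 3 lower (4.55%, against 12.3%). The groups did not overlap in 15 of the 66 members, 10 higher and 5 lower, against 33.0% of all genes. Values are log2 expression as deposited, and each difference is the miR-17 TuD mean less the NC TuD mean.

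Correlation across probe sets was 0.9994 to 0.9996 within groups and 0.9988 to 0.9991 between them. All of 8 hepatocyte markers were above the lowest value on every array and 7 were called lower, the log2 of their summed level being 16.99 to 17.05 in miR-17 TuD arrays and 17.21 to 17.26 in NC TuD arrays. That sum follows ALB and SERPINA1, its highest values. APOA1, AFP and FGB were lower by 2.48-fold, 2.40-fold and 2.39-fold, and SERPINA1, not called, differed by 0.13 without overlap (adjusted p = 0.0912 in limma). In bulk RNA, fewer cells of a type and less RNA per cell cannot be told apart. Of 7 markers of blood, endothelial and stromal cells, COL1A1 ran at 12.44 to 13.03 in miR-17 TuD arrays and 12.42 to 12.48 in NC TuD arrays. The other 6 were at 3.88 or less, with CD3E, COL3A1 and VWF at the lowest value throughout. As a sign of RNA quality, the 3′ less the 5′ control value of GAPDH averaged -0.25 in both groups (2-sided exact permutation test, p = 0.8). For ACTB it was 0.682 ± 0.0023 in miR-17 TuD arrays and 0.701 ± 0.01 in NC TuD arrays (SD, n = 3, exact p = 0.1, the smallest that 3 against 3 arrays allow). The part of these in the results was not tested.

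Of the 195 probe sets, 155 had a mean over the 6 arrays above the 40th percentile of such means (2.14) and were tested. For 11 of the 79 symbols only the lowest value on the arrays, 2.12, was recorded, among them the small heat shock genes HSPB3 and HSPB6 and the J-domain genes DNAJC15 and DNAJC5B. HSPA12A and HSPA12B also missed the filter, at no more than 2.13 and 2.17. A further 9 genes passed but had 4 or more arrays equal within 0.001. They included HSPA6, the strictly stress-inducible HSP70, HSPA1L, HSF4 and HSF1. HSF1 read 8.87, 8.86 and 8.86 in miR-17 TuD arrays and 8.85, 8.86 and 8.86 in NC TuD arrays, a difference of 0.0066 (adjusted p = 0.61 in limma). HSF2, a related factor, was not analysed here.

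In the other 57 member genes the median difference was 0.008, against 0.011 over the 11502 genes with as few tied arrays, and the median absolute difference 0.06 against 0.099. Of those 11502 genes, 13.8% were called. None of the 57 differed by more than 1.5-fold, against 2.03% of the 11502. The 95% interval of the difference lay inside 1.5-fold either way in 56 of the 57 (98.2%, against 91.4% of the 11502), DNAJB5 being the exception. It lay inside 1.2-fold in 39 (68.4%, against 53.6%). The median SD of members was 0.072 within miR-17 TuD and 0.04 within NC TuD arrays, and that of all such genes 0.074 and 0.046. Of 53 member genes with a mean level over 7, 2 were called and 15 did not overlap between groups, against 15.4% and 43.3% of the 9843 such genes.

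**Figure D1:**
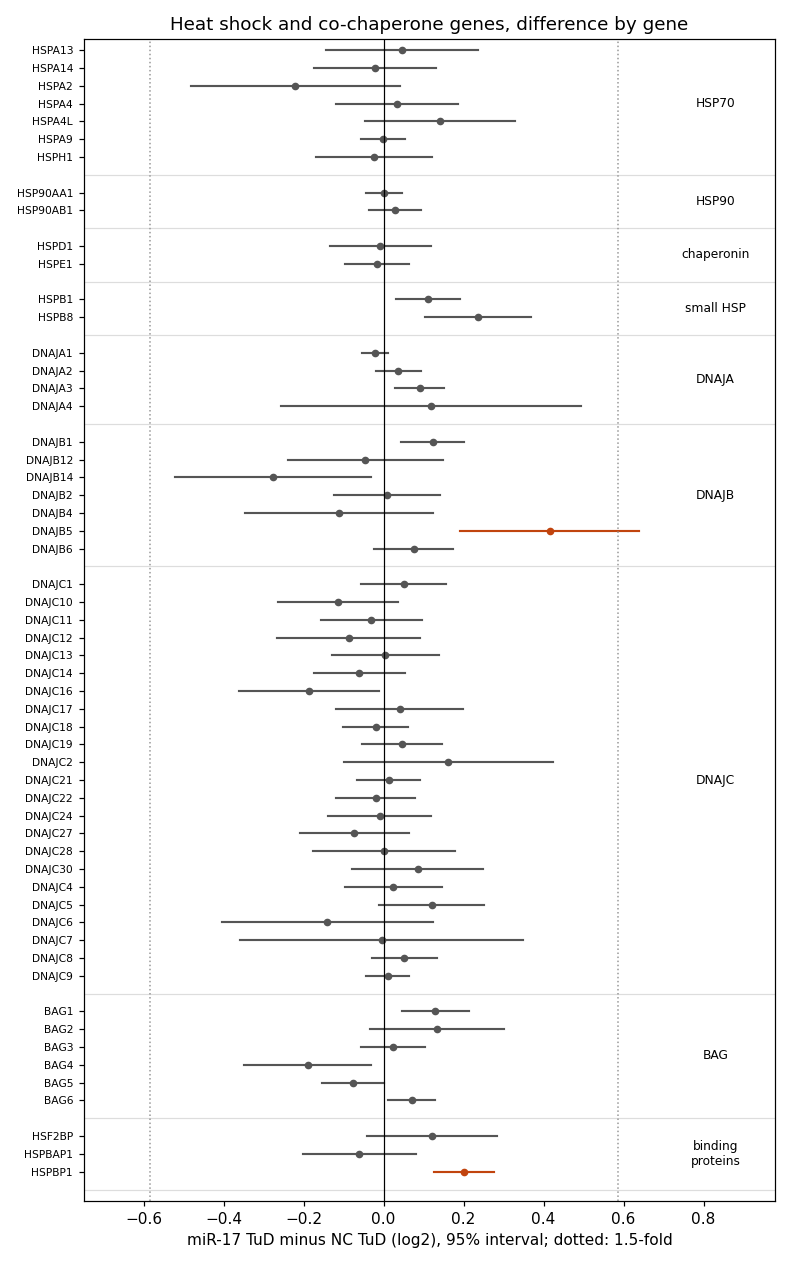
Difference between miR-17 TuD and NC TuD arrays (x axis, log2) for member genes with fewer than 4 equal arrays, by family, without DNAJC3-DT, a divergent RNA. Points are differences, lines 95% intervals from limma, dotted lines 1.5-fold, and the genes past the threshold are in red. HSPBP1 (0.20) and DNAJB5 (0.41) are the called genes.

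**Figure D2:**
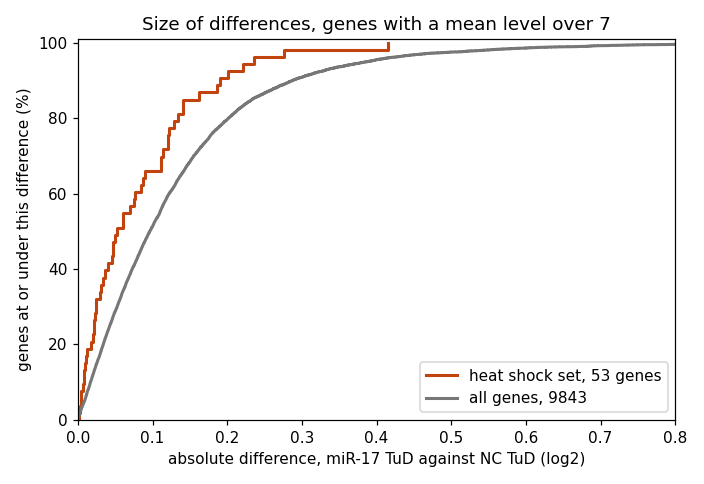
Cumulative share of genes (y axis, percent) by the absolute log2 difference (x axis), for the 53 heat shock set genes and the 9843 genes of the whole array with a mean level over 7. The heat shock curve lies to the left of that of all genes, with medians of 0.052 and 0.096.

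Of the HSP70 family, 9 of 11 symbols were tested and none was called, nor at unadjusted p under 0.05 (0 genes). Over all genes, 15.5% were higher and 12.3% lower at that unadjusted p in limma. HSPA9, the mitochondrial HSP70, stood at 13.11, 13.06 and 13.09 in miR-17 TuD arrays and 13.12, 13.08 and 13.06 in NC TuD arrays. HSPA4, an HSP110-type exchange factor, had 13.37, 13.35 and 13.17 in miR-17 TuD arrays and 13.26, 13.29 and 13.24 in NC TuD arrays. HSPH1, the inducible HSP110, had 12.34, 12.24 and 12.17 in miR-17 TuD arrays and 12.29, 12.32 and 12.21 in NC TuD arrays. All 3 overlapped between groups, with differences of -0.0023, 0.034 and -0.025 (adjusted p of 0.75 or more in limma). HSPA2, an HSP70 best known from testis, had the lowest difference of the family at -0.22 (95% interval -0.48 to 0.040, adjusted p = 0.24 in limma), and HSPA4L the highest at 0.14 (-0.047 to 0.33, adjusted p = 0.287).

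HSPA8, the constitutive HSP70 that also uncoats clathrin vesicles, was on 4 probe sets, each annotated to it together with SNORD14C and SNORD14D, small nucleolar RNA genes. They enter only the fit of single probe sets, in which 5.83% of 32768 were called and 27.3% had groups that did not overlap. On 208687_x_at the values were 15.24, 15.20 and 15.24 in miR-17 TuD arrays and 15.14, 15.13 and 15.10 in NC TuD arrays. On all 4 probe sets every miR-17 TuD array was above every NC TuD array. The threshold was passed by 3 of them: 210338_s_at at 0.10 (SE 0.015, adjusted p = 0.0354 in limma), 208687_x_at at 0.10 (SE 0.016, adjusted p = 0.0406) and 224187_x_at at 0.089 (SE 0.014, adjusted p = 0.0421). The fourth, 221891_x_at, differed by 0.094 (adjusted p = 0.0901). These are differences of 1.06-fold to 1.07-fold. All 3 calls ended with median centring, no filter, the 60th percentile filter and the replicate block, and when miR-17 TuD replicate 2 or 1 NC TuD array was dropped (adjusted p of up to 0.148).

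The stress-inducible pair HSPA1A and HSPA1B, whose transcripts are near-identical, was on 3 probe sets that name both. On 200800_s_at, which also names HSPA1L, values were 12.91, 12.90 and 12.94 in miR-17 TuD arrays and 13.05, 13.02 and 13.10 in NC TuD arrays. This was the one probe set of the 3 on which the groups did not overlap, with miR-17 TuD lower. Its difference of -0.14 (SE 0.024) missed the threshold narrowly (adjusted p = 0.05004 in limma). It passed with quantile normalization (adjusted p = 0.0343), the 60th percentile filter (adjusted p = 0.0463) and a variance trend (adjusted p = 0.0475). The other 2, 200799_at and 202581_at, differed by -0.046 and -0.074 (adjusted p = 0.464 and 0.462).

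Neither cytosolic HSP90 gene was called. HSP90AA1, the inducible form, read 15.38, 15.36 and 15.35 in miR-17 TuD arrays and 15.39, 15.35 and 15.34 in NC TuD arrays, a difference of 0.0013 with a 95% interval of -0.044 to 0.047. HSP90AB1, the constitutive form, read 14.81, 14.74 and 14.75 in miR-17 TuD arrays and 14.76, 14.71 and 14.73 in NC TuD arrays, a difference of 0.029 (-0.036 to 0.094). Both overlapped between groups, as did the mitochondrial chaperonin. HSPD1 had 15.08, 14.97 and 14.90 in miR-17 TuD arrays and 14.98, 15.01 and 14.98 in NC TuD arrays, a difference of -0.0082 (-0.13 to 0.12). Its co-chaperonin HSPE1 differed by -0.018 (-0.10 to 0.063). Of these 4 genes, 0 passed an unadjusted p of 0.05 in limma, where 15.5% of all genes were higher and 12.3% lower.

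Among small heat shock proteins, 5 of 7 symbols were tested and 3 of the 5 had tied arrays. HSPB8, the partner of BAG3 in selective autophagy of misfolded proteins, had 8.42, 8.37 and 8.49 in miR-17 TuD arrays and 8.23, 8.10 and 8.24 in NC TuD arrays. HSPB1, also called HSP27, had 14.42, 14.43 and 14.50 in miR-17 TuD arrays and 14.36, 14.30 and 14.36 in NC TuD arrays. Neither gene overlapped between groups. HSPB8 differed by 0.24 (SE 0.051, adjusted p = 0.0536 in limma) and HSPB1 by 0.11 (SE 0.030, adjusted p = 0.0916), both short of the threshold. HSPB8 passed with quantile normalization (adjusted p = 0.0306), median centring (adjusted p = 0.021), the 60th percentile filter (adjusted p = 0.027) and the replicate block (adjusted p = 0.0478). HSPB1 passed with median centring alone among the alternatives run (adjusted p = 0.0474).

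Of J-domain genes, all 4 of class DNAJA, 9 of 10 DNAJB and 23 of 26 DNAJC symbols were tested. No DNAJA gene was called. DNAJA1, a cytosolic partner of HSPA8, differed by -0.022 (95% interval -0.055 to 0.012). Its other probe set, 200880_at, differed by -0.090 (-0.15 to -0.035, adjusted p = 0.0863 in limma among single probe sets). DNAJA3, the mitochondrial partner of HSPA9, differed by 0.090 (SE 0.023, adjusted p = 0.0824 in limma). DNAJA1 was lower and DNAJA3 higher without overlap on each of their probe sets. Of the DNAJB genes, DNAJB5 rose. It had 7.48, 7.50 and 7.74 in miR-17 TuD arrays and 7.09, 7.21 and 7.18 in NC TuD arrays, so that the lowest miR-17 TuD array was above the highest NC TuD array. The difference was 0.41 (SE 0.085, adjusted p = 0.0479 in limma). Fitted as a single probe set it had an adjusted p of 0.0685, and the second DNAJB5 probe set differed by 0.35 (adjusted p = 0.243). The call also ended with no filter, with s_at and x_at probe sets left out, with the robust variance model and with the replicate block (adjusted p of 0.0574 to 0.0941). Leaving out 1 array ended it in each case but miR-17 TuD replicate 3 (adjusted p of 0.0369 to 0.149).

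DNAJB1, the HSP40 induced by heat, had 13.39, 13.42 and 13.50 in miR-17 TuD arrays and 13.32, 13.31 and 13.33 in NC TuD arrays. Its groups did not overlap, and its difference of 0.12 (SE 0.030) had an adjusted p of 0.0719 in limma. It passed with median centring (adjusted p = 0.0294), averaged probe sets (adjusted p = 0.0473), array weights (adjusted p = 0.0409) and without miR-17 TuD replicate 3 (adjusted p = 0.0392). DNAJB6, a suppressor of polyglutamine aggregation, differed by 0.075 (adjusted p = 0.281). The probe sets named for DNAJB6 and TMEM135 together, 208810_at and 208811_s_at, differed by 0.28 and 0.081 (adjusted p = 0.0927 and 0.506 among single probe sets). DNAJB14, a membrane protein of the endoplasmic reticulum, had the lowest J-domain difference. It stood at 9.42, 9.27 and 9.10 in miR-17 TuD arrays and 9.52, 9.62 and 9.47 in NC TuD arrays, without overlap (-0.28, SE 0.094, adjusted p = 0.145).

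None of 23 DNAJC genes was called in limma, with 0 higher and 1 lower at unadjusted p under 0.05 (15.5% and 12.3% of all genes). That gene, DNAJC16, had 7.41, 7.31 and 7.50 in miR-17 TuD arrays and 7.61, 7.51 and 7.66 in NC TuD arrays, without overlap (-0.19, adjusted p = 0.161 in limma). The DNAJC differences ran from this value to 0.16 for DNAJC2, a ribosome-bound co-chaperone, with a median of 0.0015, and 12 of the 23 were above 0. DNAJC5, the cysteine string protein, differed by 0.12 (adjusted p = 0.213). DNAJC7, a co-chaperone with tetratricopeptide repeats, had the widest error of the family, at 11.02, 10.90 and 10.66 in miR-17 TuD arrays and 11.06, 10.76 and 10.76 in NC TuD arrays (95% interval of the difference -0.36 to 0.35). DNAJC9, a chaperone of histones, had the narrowest, at 12.78 to 12.84 in miR-17 TuD arrays and 12.79 to 12.81 in NC TuD arrays (-0.044 to 0.064).

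By compartment, members of the endoplasmic reticulum had a median difference of -0.046 over 7 genes, with 2 lower and 0 higher at unadjusted p under 0.05 in limma, where 12.3% of all genes were lower. Mitochondrial members had a median of 0.0015 over 9 genes, with 1 higher, where 15.5% of all genes were higher. Those listed for the nucleus and RNA processing had 0.026 over 6, with none. That list also holds DNAJC2, which is ribosome-bound, and DNAJC7, a co-chaperone with tetratricopeptide repeats. They had its highest and lowest differences (0.16 and -0.0045). Over all genes tested the median was 0.00056. No gene of these lists passed the adjusted threshold.

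HSPBP1 had the lower adjusted p of the called genes. It stood at 11.04, 11.01 and 11.05 in miR-17 TuD arrays and 10.87, 10.78 and 10.86 in NC TuD arrays. All miR-17 TuD arrays were above all NC TuD arrays, with a difference of 0.20 (SE 0.029, adjusted p = 0.0221 in limma). It passed under the alternatives run that kept the 6 arrays and its probe set, whose suffix s_at marks probes that can bind more than 1 transcript. Among the fits without 1 array it passed only without NC TuD replicate 2, with adjusted p of 0.0415 to 0.0688. HSPBAP1 and HSF2BP, a protein that binds HSP27 and one that binds HSF2, entered by their symbols and were not called.

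BAG proteins are named for a domain through which several of them, BAG1 among them, bind the HSP70 ATPase domain. All 6 genes were tested and none was called in limma. At unadjusted p under 0.05 in limma, 2 were higher and 1 lower, against 15.5% and 12.3% of all genes. BAG1, also a binder of BCL2, was without overlap on all 3 of its probe sets. The probe set with the highest mean, which stands for the gene, had 11.22, 11.23 and 11.30 in miR-17 TuD arrays and 11.09, 11.11 and 11.16 in NC TuD arrays (0.13, SE 0.032, adjusted p = 0.0751 in limma). On 202387_at the values were 10.63, 10.66 and 10.63 in miR-17 TuD arrays and 10.43, 10.37 and 10.46 in NC TuD arrays. There the difference of 0.22 (SE 0.027) passed among single probe sets (adjusted p = 0.0246), and on 229720_at it was 0.28 (adjusted p = 0.0706). The gene passed with averaged probe sets (adjusted p = 0.0217), without s_at and x_at probe sets (adjusted p = 0.0189), with median centring (adjusted p = 0.0393) and with the replicate block (adjusted p = 0.0426).

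BAG3, the HSF1 target that links HSP70 to autophagy, differed by 0.023 (95% interval -0.056 to 0.10). BAG4, known as a silencer of death domain signalling, had 11.42, 11.47 and 11.26 in miR-17 TuD arrays and 11.55, 11.56 and 11.61 in NC TuD arrays. The groups did not overlap, and the difference of -0.19 (SE 0.061) had an adjusted p of 0.129 in limma. BAG6, which hands tail-anchored proteins to their insertion route, differed by 0.070 (adjusted p = 0.126), and BAG5 by -0.076 (adjusted p = 0.184). BAG2, an inhibitor of the ubiquitin ligase STUB1, differed by 0.13 (adjusted p = 0.26).

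**Figure D3:**
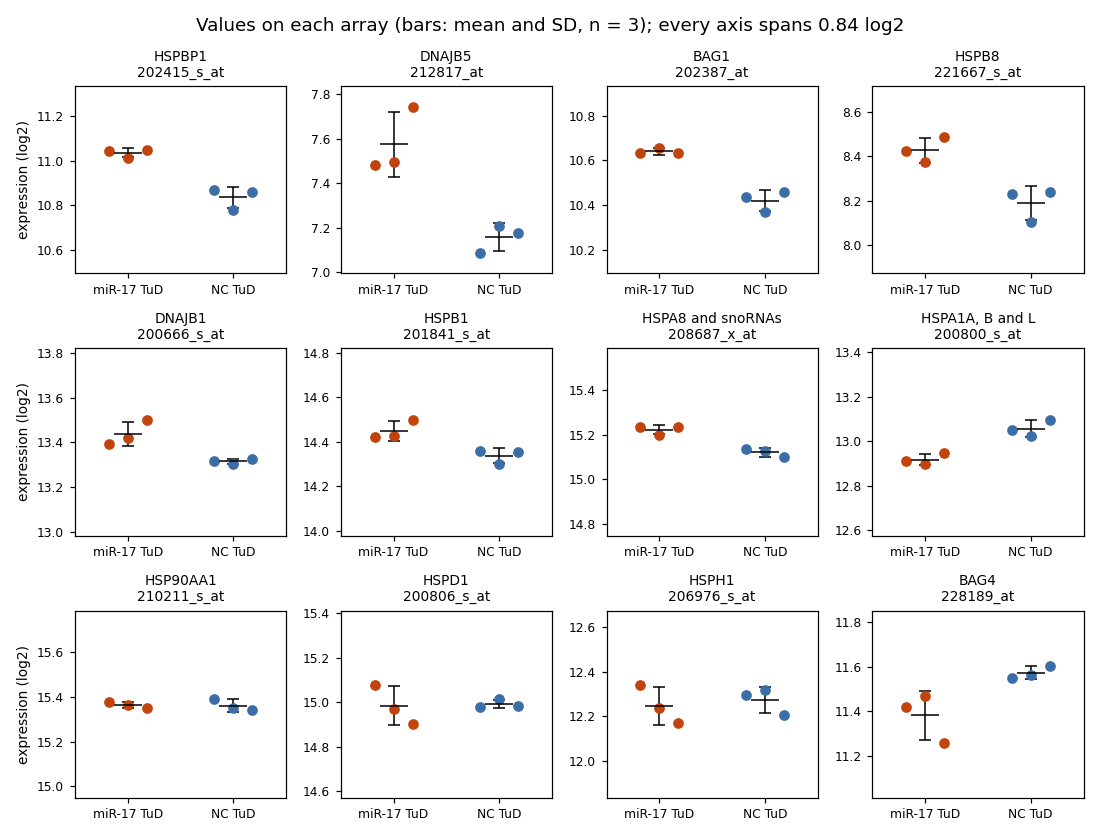
Log2 expression on each array for 12 probe sets, miR-17 TuD in red on the left and NC TuD in blue on the right, with bars for mean and SD (n = 3) and every axis spanning the same log2 range. For BAG1 and for HSPA1A, B and L the probe set of lowest adjusted p is shown. HSPBP1, DNAJB5, BAG1, HSPB8, DNAJB1, HSPB1 and the HSPA8 probe set lie higher in miR-17 TuD without overlap. BAG4 and the HSPA1A, B and L probe set lie lower without overlap, and HSP90AA1, HSPD1 and HSPH1 overlap.

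Of the single probe sets, 5 of 155 tested rose and none fell in limma, with 19 higher and 8 lower at unadjusted p under 0.05 (12.3% and 5.16%, against 11.3% and 10.8% of all probe sets). Among all probe sets 3.35% rose and 2.48% fell. The 5 were 202387_at of BAG1, the HSPBP1 probe set and the 3 of HSPA8. With quantile normalization 6 rose and 1, the HSPA1A, HSPA1B and HSPA1L probe set, fell. The other probe sets with several symbols were not called: 226859_at of DNAJC25 and DNAJC25-GNG10 differed by -0.13 (adjusted p = 0.188), 238805_at of HSPB2, C11orf52 and their readthrough by 0.035 (adjusted p = 0.885), and 202918_s_at of MOB4 and HSPE1-MOB4 by -0.012 (adjusted p = 0.982). No gene had probe sets called in opposite directions.

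Members taken to be induced by heat shock through HSF1 were listed from general knowledge, with earlier results of these data already known. The list also holds HSPA1L and the constitutive forms HSPA8 and HSP90AB1, so it is not a set of strictly inducible genes. Of 18 listed, 15 were tested as single genes. HSPA1A, HSPA1B and HSPA8 were only on probe sets with several symbols and are outside the counts and medians that follow. The probe sets naming HSPA1A and HSPA1B, described with the HSP70 family, were lower in miR-17 TuD arrays but short of the threshold in the main fit. None was called in limma, with 3 higher and 0 lower at unadjusted p under 0.05, against 15.5% and 12.3% of all genes. Their median was 0.0037, the value of HSPA6 with its tied arrays, and 0.023 over the 13 genes with fewer tied arrays. The 6 tested genes with the 3-unit heat shock element had differences between -0.022 and 0.075, with a median of 0.0025, or 0.0013 over the 5 without HSPA6. The seventh gene with that element, HSPA8, was measured only on the 4 shared probe sets described with the HSP70 family, 3 of them called higher. Inside the miR-17 TuD group, replicate 1 was the highest array in 7 of the 13 listed genes with fewer tied arrays and replicate 3 the lowest in 8, against 27.2% and 27.0% of all 11502 such genes. Inside the NC TuD group, replicate 1 was also the highest in 7 of the 13, against 35.7% of all such genes, and replicates 2 and 3 were each the lowest in 6, against 37.4% and 30.5%.

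Heat-inducible genes outside the members were listed in the same way as the HSF1-inducible members. They were called higher in 2 of 15 tested and lower in none, where 6.78% and 4.6% of all genes were called. At unadjusted p under 0.05 in limma, 5 were higher and 1 lower, beside 15.5% and 12.3% of all genes. CRYAB, the small heat shock protein alpha B crystallin, had 9.17, 9.29 and 9.33 in miR-17 TuD arrays and 8.95, 8.85 and 8.93 in NC TuD arrays. It rose 1.28-fold (0.36, SE 0.054, adjusted p = 0.0249 in limma), without overlap. The call ended with no filter, with the replicate block and without 1 array, miR-17 TuD replicate 1 excepted (adjusted p of up to 0.0894). FKBP4 was the other, and it is counted again among the partner genes that follow. STIP1, CHORDC1, CACYBP, PPID, PTGES3, CCT4 and ST13 are also in both lists. ZFAND2A, induced by proteotoxic stress, differed by -0.13 (adjusted p = 0.121), and SERPINH1, the collagen chaperone HSP47, by -0.078 (adjusted p = 0.369).

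Partner proteins outside the members were listed as well, again with earlier results known: 36 co-chaperones and subunits of TRiC, the cytosolic chaperonin, and of prefoldin. Of 32 tested, 8 rose and 1 fell, where 6.78% of all genes rose and 4.6% fell. Their median difference was 0.10 and 27 were above 0, against a median of 0.00056 over all genes tested. All of the 32 had a mean level over 7. Among the 9843 genes with such a mean, the median was 0.013 and 15.4% were called in either direction. CDC37L1, an HSP90 co-chaperone related to CDC37, had 10.59, 10.66 and 10.44 in miR-17 TuD arrays and 9.75, 9.89 and 9.76 in NC TuD arrays. This rise of 1.69-fold (0.76, SE 0.074, adjusted p = 0.0105 in limma) was the largest of the list. CDC37 itself, which delivers kinases to HSP90, differed by 0.14 (adjusted p = 0.138).

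FKBP5 and FKBP4 are immunophilins of HSP90 complexes with steroid receptors. FKBP5 had 11.70, 11.65 and 11.57 in miR-17 TuD arrays and 11.26, 11.26 and 11.27 in NC TuD arrays and rose 1.30-fold (0.38, SE 0.036, adjusted p = 0.0103 in limma). FKBP4 had 11.38, 11.37 and 11.35 in miR-17 TuD arrays and 11.15, 11.14 and 11.14 in NC TuD arrays and rose 1.17-fold (0.22, SE 0.013, adjusted p = 0.00494). Both were without overlap, but without s_at and x_at probe sets the FKBP4 difference was 1.32e-05 (adjusted p = 1). GRPEL1, the mitochondrial exchange factor of HSPA9, rose 1.12-fold (0.16, adjusted p = 0.00923) and TRAP1, the mitochondrial HSP90, 1.21-fold (0.28, adjusted p = 0.0404). GRPEL2 and HSCB, also mitochondrial, differed by 0.10 and 0.031 (adjusted p = 0.268 and 0.627). The TRiC subunits CCT3 (0.13, adjusted p = 0.0304) and CCT5 (0.14, adjusted p = 0.0399) and GAK (0.18, adjusted p = 0.0416), a J-domain kinase of clathrin uncoating, completed the rises.

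SEC63, the J-domain protein of the translocation channel of the endoplasmic reticulum, fell. It had 12.10, 12.09 and 12.05 in miR-17 TuD arrays and 12.28, 12.28 and 12.23 in NC TuD arrays, without overlap (-0.18, SE 0.023, adjusted p = 0.017 in limma). The call ended with averaged probe sets, without s_at and x_at probe sets, and when miR-17 TuD replicate 2, NC TuD replicate 1 or NC TuD replicate 2 was dropped (adjusted p of up to 0.287). GRPEL1 was called under every alternative run. CDC37L1 missed the threshold when NC TuD replicate 1 was left out (adjusted p = 0.0529), and FKBP5 without NC TuD replicate 1 or 2 (adjusted p = 0.0521 and 0.0532). Partner genes that rose numbered 2, 3 and 4 without NC TuD replicates 1, 2 and 3, 5 without miR-17 TuD replicate 2, and 4 with the replicate block or with no filter. Calls over all genes fell too. Genes called higher went from 946 in the main fit to 216, 226 and 305 without NC TuD replicates 1, 2 and 3. They numbered 485 without miR-17 TuD replicate 2, 467 with the replicate block and 484 with no filter. The calls of TRAP1, GAK, CCT3 and CCT5 ended in 9, 9, 7 and 10 of the alternatives.

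**Figure D4:**
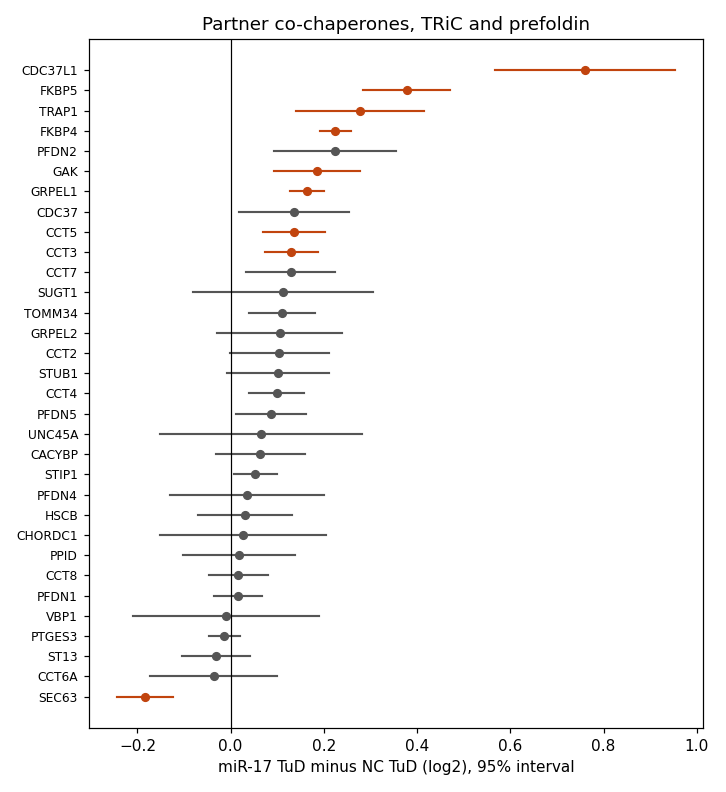
Difference between miR-17 TuD and NC TuD arrays (x axis, log2) for the 32 partner genes tested, in order of the difference. Points are differences, lines 95% intervals from limma, and genes past the threshold are in red, with CDC37L1 at 0.76 and SEC63 at -0.18 at the ends.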

How the data were processed

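RMA and GCRMA appear in the submitters' processing notes, with neither role nor version stated. The deposited log2 values were analysed unchanged. At 34.9% to 35.4% of probe sets per array, the lowest value acts as a floor that hides changes of weak genes. After removal of 62 control probe sets, those with a mean at or under the 40th percentile were left out. A gene took the probe set of highest mean among those with 1 symbol in GEO's platform annotation, updated by Entrez identifier (matched for 41037 of 41091 probe sets).

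limma 3.58.1 (R 4.3.3) tested the groups: lmFit, eBayes without trend, 2-sided, Benjamini-Hochberg over all genes or all probe sets, threshold 0.05. The procedure was tested on simulated data. Intervals are 95% intervals of the moderated statistic. Members and lists were chosen with earlier results of these data known. Named are member genes past the threshold, a fixed panel of 20 genes, probe sets with several symbols, and up to 4 rises and falls called in each list. Other genes were named after their values were seen, for groups that did not overlap, for a place at the end of a family's range or for their role. Same-numbered replicates of the groups correlated in their deviations at 0.032, 0.13 and 0.1, and differently numbered ones at -0.1 to 0.001. These values do not settle whether the numbers pair the samples. The main fit left the pairing out, and the replicate block includes it. Alternatives were quantile normalization, median centring, other filters, probe set choices and variance models, the replicate block and leaving out each array. The number of arrays limits the precision.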

Additional observations from a re-analysis of the deposited data

How the results depend on the processing

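Counts of member genes that rose (2) were 6 with median centring and 5 with averaged probe sets. Over all genes, 15.4% and 10.6% were called with these settings, against 11.4% in the main fit. The member count was 1 with no filter on low values, without s_at and x_at probe sets or with robust variance. The replicate block gave 3 and added 1 that fell, DNAJC16. Leaving out 1 array gave 0 to 2 that rose and 0 that fell.
Member probe sets that rose (5) were 0 with no filter, 1 without s_at and x_at probe sets and 0 with the replicate block. Over all genes, calls went from 1588 to 789, 927 and 822 with these settings. Calls over all probe sets were not counted by setting, so a loss particular to the members cannot be read from these counts. None fell (0), or 1 with quantile normalization, the 60th percentile filter or a variance trend. Leaving out 1 array gave 0 to 2 that rose and 0 to 1 that fell.
Partner genes that rose (8) were 4 with no filter and 4 with the replicate block. Over all genes, 484 and 467 rose with these settings, against 946 in the main fit. None fell (0) with averaged probe sets or without s_at and x_at probe sets. Leaving out 1 array gave 2 to 7 that rose and 0 to 1 that fell.
HSF1-inducible member genes that rose (0) were 3 with median centring and 1 with quantile normalization, the 60th percentile filter, averaged probe sets, array weights or the replicate block. Leaving out 1 array gave 0 to 1. Of the other inducible genes, 2 rose, or 1 with no filter, without s_at and x_at probe sets or with the replicate block, which added 1 that fell. Leaving out 1 array gave 1 to 2.
No named gene or probe set reversed in a called direction. Fits without 1 array rest on fewer samples by construction. For the other settings the cause was not tested. Over all genes the calls numbered 1588, against 789 with no filter, 822 with the replicate block, 927 without s_at and x_at probe sets and 374 to 1243 without 1 array. With median centring they numbered 2143, 1426 of them higher and 717 lower, and the median difference over all genes was 0.023. Quantile normalization gave 1856 calls and the 60th percentile filter 2104.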
